A study of Mus musculus with 27 samples.

Results

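Potassium channel genes were taken as every row of the gene read-count table whose symbol begins with Kcn, followed by letters and a number with nothing after it. The rule found 92 of 55416 rows, spread over 19 chromosomes. They encode 30 pore subunits of voltage-gated channels (Kcna, Kcnb, Kcnc, Kcnd, Kcnh and Kcnq), 10 modifier subunits that form no channel alone (Kcnf, Kcng, Kcns and Kcnv), 15 auxiliary subunits (Kcnab, Kcne, Kcnip and Kcnmb), 8 channels of the calcium- and sodium-activated family (Kcnma, Kcnn, Kcnt and Kcnu), 15 inward rectifiers (Kcnj) and 14 leak channels with a tandem pore (Kcnk). The libraries were made from poly-A RNA of whole brains of female mouse fetuses of 3 strains at gestational day 12 (d12), 15 (d15) or 17 (d17), with 3 libraries for each strain and day and 27 in all. The strains were the inbred AKR/J, the inbred C57BL/6J, and the congenic B6.Cg-Cav1tm1Mls/J (Cav1-null), which carries a targeted mutation of the caveolin 1 gene. All pregnancies were started with mice about 8 weeks old, and the day of the vaginal plug was counted as day 1. Between 26363697 and 39759702 reads were counted per library (median 29700746).

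Potassium channels let potassium leave the cell and so set the resting potential, end each action potential and limit the rate of firing. Voltage-gated, calcium-activated and sodium-activated channels open when a neuron is active, inward rectifiers and leak channels hold the cell near rest, and auxiliary and modifier subunits change how the pores gate and where they are placed. In the fetal brain, newborn neurons add these channels as they leave the cycling progenitor pool and become excitable.

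Levels are given as CPM, read counts divided by library size and adjusted between libraries with the trimmed mean of M values, as 3 libraries in the order of their replicate numbers. A gene was called when its adjusted p in edgeR's quasi-likelihood test, corrected by the method of Benjamini and Hochberg over all genes tested, was under 0.05. Log2 fold changes are given with their standard errors. Genes with too few reads in a comparison were not tested, and counts below are out of all 92 channel genes. Gene positions are in build GRCm39. The study's methods call the 3 libraries of a group biological replicates, and the labels do not say which fetuses shared a litter.

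The targeted gene followed the labels, with Cav1 between 0 and 0.503 CPM in the Cav1-null libraries and between 9.42 and 41.1 CPM in the others. Markers of neurons, radial glia and astrocytes were present in every group. The AKR/J d12 libraries stood apart: erythroid genes took 3.56% to 13.6% of their reads against at most 1.93% in any other library, and their summed neuronal markers were at 2083 to 2814 CPM against at least 3912 CPM elsewhere. The first of them carried 2333 CPM of placenta, decidua and yolk sac markers, against at most 611 CPM in any other library. That list shares Ttr with the list of choroid plexus markers, which summed to 311 CPM in the same library. The library with 611 CPM, the third of Cav1-null d12, had the highest choroid plexus sum, 722 CPM. The second AKR/J d15 library carried 179.5 CPM of eye and 129 CPM of skeletal muscle markers, and the first C57BL/6J d15 library 5136 CPM of connective tissue markers, more than any other library in each case.

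Every channel gene had at least 6 reads over the 27 libraries, 35 averaged 10 CPM or more and 18 averaged under 1 CPM. Compared per kilobase of exon, Kcna3, a delayed rectifier also used by lymphocytes, had a mean of 9.49 CPM per kb over all libraries, above Kcnh4 at 7.505, Kcnd3 at 6.77 and Kcnh2 at 6.53 CPM per kb. Over all libraries their ranges overlapped, with 3.02 to 14.1 CPM per kb for Kcna3 and 3.35 to 11.7 CPM per kb for Kcnh2, and these ranges pool 9 groups of strain and day.

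The summed level of all 92 genes was 483 to 659 CPM in AKR/J d12, 851 to 1416 CPM in C57BL/6J d12 and 1112 to 1134 CPM in Cav1-null d12. On d15 the sums were 1197 to 1504, 1958 to 2212 and 1646 to 1700.1 CPM, and on d17 1809 to 1867, 2085 to 2663 and 2029 to 2187 CPM in the same order. The sums of AKR/J and Cav1-null did not overlap between days, while those of C57BL/6J overlapped between d15 and d17.

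**Figure D1:**
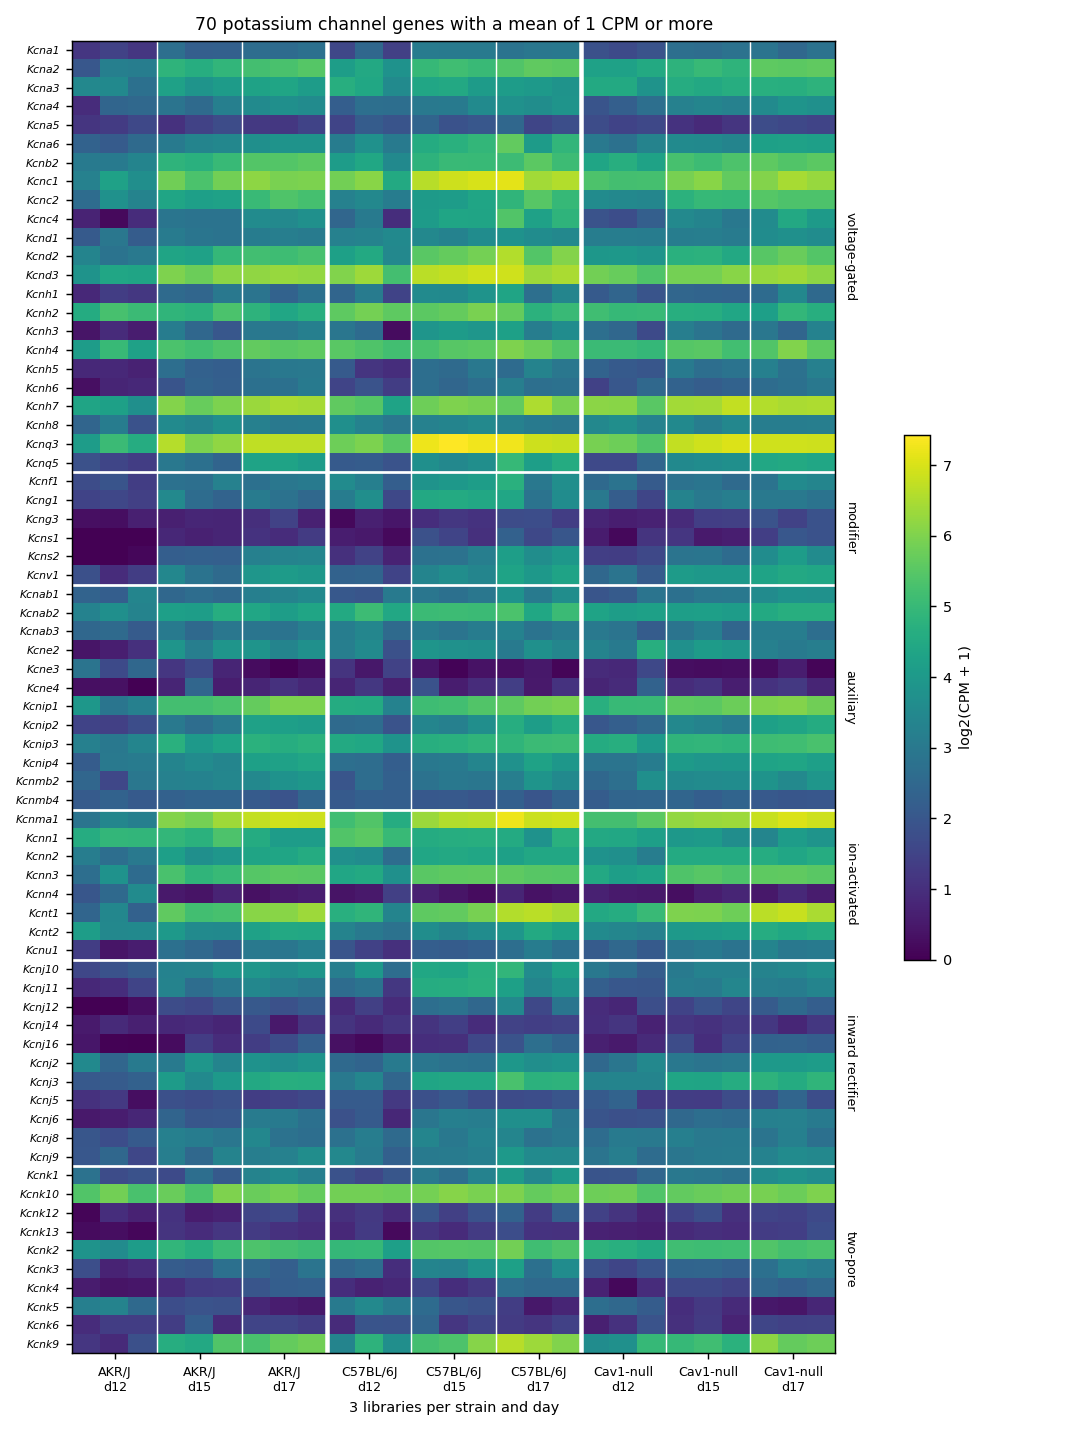
Level of 70 potassium channel genes with a mean of at least 1 CPM (rows, grouped by class) in each of the 27 libraries (columns, 3 for each strain and day), coloured by log2(CPM + 1). Most rows brighten from d12 to d17, while Kcnk5 darkens (7.304 to 10.4 CPM on d12 and 0.383 to 1.55 CPM on d17 in C57BL/6J).

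The comparison of days asked how the channel genes changed in the early phase (d12 to d15) and the late phase (d15 to d17) of each strain. Far more channel genes rose than fell. In the early phase, 44 were called higher and 3 lower in AKR/J, 25 and 2 in C57BL/6J, and 38 and 5 in Cav1-null. Among all genes tested, 14.8% were higher and 14.1% lower in AKR/J, 7.12% and 7.89% in C57BL/6J, and 11.8% and 12% in Cav1-null. In the late phase, 32 channel genes were higher and 3 lower in AKR/J, 16 and 2 in C57BL/6J, and 42 and 1 in Cav1-null. The background of the late phase was 11.8% higher and 10.5% lower in AKR/J, 7.47% and 5.52% in C57BL/6J, and 14.6% and 12.9% in Cav1-null. Of the 92 channel genes, 17.4% (late phase, C57BL/6J) to 47.8% (early phase, AKR/J) were called higher and 1.09% to 5.43% lower, so the shares higher lay above the background and the shares lower below it in each comparison. The early and late comparisons of a strain share its d15 libraries.

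**Figure D2:**
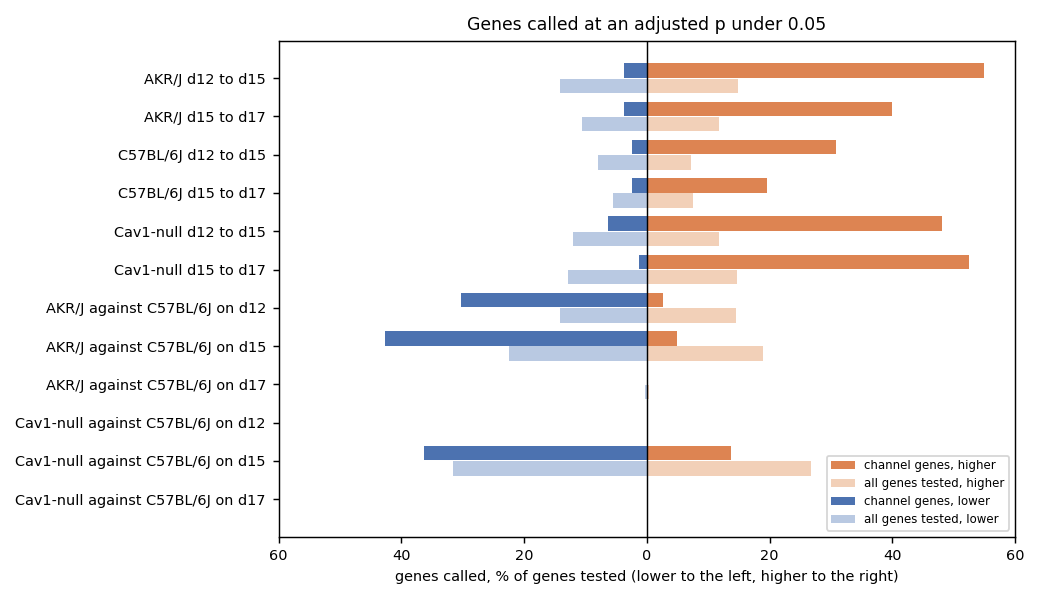
Percentage of genes tested that were called higher (to the right) or lower (to the left) in each comparison, for the channel genes and for all genes tested. The channel genes lean to the right in the 6 comparisons of days and to the left in AKR/J against C57BL/6J on d12 and d15, where 23 and 35 were lower.

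The median log2 fold change of the channel genes tested was 1.26 for AKR/J, 0.90 for C57BL/6J and 0.63 for Cav1-null for the early phase, and 0.44, 0.30 and 0.38 for the late phase, beside medians over all genes tested of 0.02, -0.04 and -0.01, and -0.01, 0.03 and 0.00. Summed neuronal markers ranged over 2083 to 2814 CPM on d12 and 4413 to 6752 CPM on d15 in AKR/J. In C57BL/6J they ranged over 3912 to 6263 and 7149 to 7959 CPM, without overlap, and in Cav1-null over 4931 to 6196 and 6124 to 6160.5 CPM, which overlapped. The d17 ranges were 6451 to 6630.4 CPM for AKR/J and 5793 to 8712 CPM for C57BL/6J, both overlapping d15, and 6424 to 6923 CPM for Cav1-null, above d15 without overlap. Their part in the counts was not tested, and in bulk tissue fewer cells of a type and less RNA per cell cannot be told apart.

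The counts of C57BL/6J fell to 0 with some single libraries left out. Its early count of 27 became 4 without the first d12 library, 42 without the second, and 0 without the first, the second or the third d15 library. Its late count of 18 became 2, 0 and 7 without the first, the second and the third d15 library and 0 without the third d17 library. In AKR/J, the late count of 35 became 16 or 17 without the second or the third d17 library, and in Cav1-null the early count of 43 became 28 without the second d15 library. The early count of AKR/J, 47 with all libraries, was 43 without the first d12 library and ranged between 32 and 51, and the late count of Cav1-null between 35 and 40. Fewer libraries leave fewer degrees of freedom, and the share of all genes called is not given for these settings. The cause of the changes was not tested. With all 27 libraries in 1 model, the late count of Cav1-null became 5 in place of 43 and its early count 24, the late count of AKR/J 17, and the early and late counts of C57BL/6J 42 and 11.

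By class, 19 of the 30 voltage-gated pore subunits rose in the early phase for AKR/J, 11 for C57BL/6J and 17 for Cav1-null, and 16, 3 and 16 in the late phase. The modifier subunits had the largest class median of the early phase in the 3 strains, at 1.68, 1.57 and 1.05 on the log2 scale, with 5, 3 and 3 of their 10 genes called higher. Of the 15 inward rectifiers, 6, 6 and 4 rose in the early phase, of the 14 leak channels 4, 2 and 4, of the 8 ion-activated channels 5, 2 and 6, and of the 15 auxiliary subunits 5, 1 and 4. Among all genes tested, 14.8%, 7.12% and 11.8% rose in the early phase and 11.8%, 7.47% and 14.6% in the late phase. The 1 of 15 auxiliary subunits in the C57BL/6J early phase and the 3 of 30 voltage-gated pores in its late phase lie near these shares.

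Over the 6 comparisons, 61 of the 92 genes were called higher at least once, 72.6% of the 84 tested, beside 28.1% of all genes tested. Kcne3, Kcnh2, Kcnk5, Kcnn1 and Kcnn4 were called lower and never higher, and Kcna5, Kcne2 and Kcnj11 were called both ways. Another 18 were tested without a call, among them Kcna3, and Kcna7, Kcna10, Kcne1, Kcnj1, Kcnk15, Kcnk16, Kcnk18 and Kcnmb3 had too few reads for any of these tests.

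**Figure D3:**
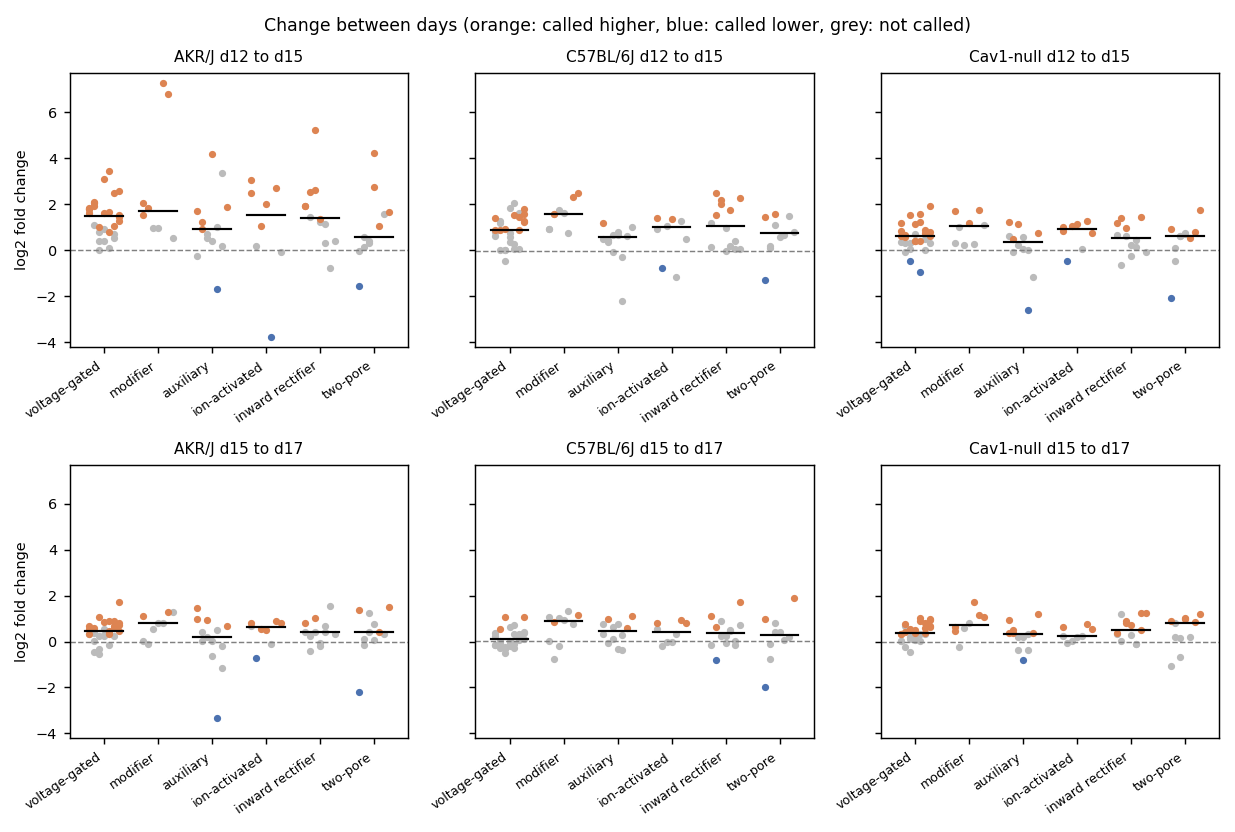
Log2 fold change of each channel gene tested from d12 to d15 and from d15 to d17 in the 3 strains, by class, with the class median as a bar and the median of all genes tested as a dashed line. Most points lie above the dashed line, and the median of the channel genes is largest, at 1.26, in the AKR/J early phase.

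Kcna2, Kcnc2, Kcnip2, Kcnj3, Kcnq5, Kcns2 and Kcnv1 were called higher in all 6 comparisons. These 7 were 9.21% of the channel genes tested in all 6, beside 1.45% of all genes so tested, and the early and late comparisons of a strain are not independent, since they share libraries. They encode a voltage-gated pore of axons (Kcna2), a pore of fast-firing neurons (Kcnc2), a calcium-binding partner of A-type channels (Kcnip2), an inward rectifier opened by G proteins (Kcnj3), an M-current pore (Kcnq5) and modifier subunits (Kcns2 and Kcnv1). The promoters of Kcnc2 and Kcnip2 are shown with that of Kcnk5, which fell, so that genes moving in opposite directions can be compared. They are RefSeq windows of 300 bases, from 250 before to 50 after the annotated start, in build GRCm38.p6 and written 5′ to 3′ on the strand of the gene. Capitals mark GC boxes (GGGCGG) and E-boxes (CAGCTG) on either strand.
Kcnc2, chr10:112269767-112270066, plus strand: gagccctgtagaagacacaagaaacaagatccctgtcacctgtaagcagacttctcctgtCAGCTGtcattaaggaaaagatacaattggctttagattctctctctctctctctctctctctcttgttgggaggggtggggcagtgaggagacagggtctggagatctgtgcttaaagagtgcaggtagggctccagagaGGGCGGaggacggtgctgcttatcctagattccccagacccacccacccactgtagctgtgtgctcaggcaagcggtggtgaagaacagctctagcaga
Kcnip2, chr19:45816014-45816313, minus strand: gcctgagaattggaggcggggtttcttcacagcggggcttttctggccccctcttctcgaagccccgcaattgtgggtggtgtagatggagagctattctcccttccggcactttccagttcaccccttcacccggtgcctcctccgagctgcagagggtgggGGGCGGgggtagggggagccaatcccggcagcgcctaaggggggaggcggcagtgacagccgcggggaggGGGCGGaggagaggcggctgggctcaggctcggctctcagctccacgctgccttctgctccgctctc
Kcnk5, chr14:20181733-20182032, minus strand: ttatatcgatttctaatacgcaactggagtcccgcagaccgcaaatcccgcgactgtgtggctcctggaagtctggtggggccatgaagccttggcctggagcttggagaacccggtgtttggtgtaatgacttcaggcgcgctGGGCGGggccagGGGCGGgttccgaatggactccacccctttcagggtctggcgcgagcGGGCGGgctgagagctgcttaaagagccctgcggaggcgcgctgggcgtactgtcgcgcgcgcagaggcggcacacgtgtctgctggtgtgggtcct
A GC box was in 35 of the 67 channel genes that have a window in the table (52.2%, beside 35.7% of 32851 windows of all genes), and an E-box in 16 (23.9% beside 16.3%). A TATA box, searched as TATAAA on both strands, was in 3 (4.48% beside 13.6%). Kcnc2 has 1 GC box and 1 E-box, Kcnip2 has 2 GC boxes and Kcnk5 has 3, so GC boxes were found before genes that rose and before one that fell. The windows of the channel genes also had a higher median GC content, 58.3% beside 52.7% over all windows. A match of letters is not a binding site.

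Kcnq5 was at 2.60, 1.94 and 1.55 CPM on d12, 6.88, 5.75 and 4.23 CPM on d15 and 18.8, 19.02 and 16.2 CPM on d17 in AKR/J. In C57BL/6J its libraries were at 3.27, 3.48 and 2.71, then 12.02, 10.1 and 11.8, then 30.3, 16.9 and 22.95 CPM, and in Cav1-null at 2.15, 2.13 and 4.52, then 10.5, 11.2 and 12.1, then 21.1, 21.9 and 20.3 CPM. No day overlapped the next in any strain. Its early and late log2 changes were 1.43 ± 0.35 (adjusted p = 0.018) and 1.72 ± 0.20 (adjusted p = 0.00092) in AKR/J, 1.81 ± 0.18 (adjusted p = 0.014) and 1.08 ± 0.21 (adjusted p = 0.021) in C57BL/6J, and 1.94 ± 0.32 (adjusted p = 0.0026) and 0.93 ± 0.11 (adjusted p = 1.8e-05) in Cav1-null. Kcnq3, another pore subunit of the M current, rose in the early phase of the 3 strains, by 1.66 ± 0.28 (adjusted p = 0.0041), 1.53 ± 0.13 (adjusted p = 0.0085) and 1.23 ± 0.12 (adjusted p = 0.00016) on the log2 scale in AKR/J, C57BL/6J and Cav1-null. In C57BL/6J it went from 54.8, 61.3 and 44.9 to 151, 172 and 154 CPM, and its share of the Kcnq level per length was 15.3% to 18.6% on d12 and 25.6% to 28.2% on d15. Kcnq1, a heart and epithelial channel gene overlapped by the antisense RNA Kcnq1ot1, stayed at 0.126 to 1.91 CPM without a call, and its reads cannot be told from those of the antisense RNA where the strand setting of the counting is not known. In all, 66 of the 92 genes overlap another gene on the other strand, and the same limit holds for them.

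Kcns2, whose product modifies delayed rectifiers, was almost without reads in AKR/J d12. Its libraries there were at 0, 0 and 0.104 CPM (2 reads in all), then 3.63, 3.85 and 3.802 CPM on d15 and 8.34, 9.07 and 9.38 CPM on d17. The ratio of d15 to d12 was 137, with a 95% counting interval of 37.7 to 1138 that covers counting error only. In C57BL/6J it went from 1.03, 1.79 and 0.644 to 5.82, 6.04 and 7.99 CPM, a log2 change of 2.48 ± 0.37 (adjusted p = 0.017). Its relative Kcns1 had no read in AKR/J d12 and was at 0.764, 0.602 and 0.721 CPM on d15, at least 16.9-fold higher against a floor of 3 reads over the d12 group. Of other modifiers, Kcnf1 rose in the AKR/J early phase and the Cav1-null late phase, and Kcng1 in the AKR/J early phase (1.83 ± 0.41, adjusted p = 0.012).

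Kcnb2, which encodes a delayed rectifier pore, was at 7.14, 7.31 and 9.32, then 27.5, 25.4 and 31.5, then 42.5, 42.6 and 45.9 CPM in AKR/J, with an early log2 change of 1.80 ± 0.20 (adjusted p = 0.001). In C57BL/6J it was at 16.2, 20.4 and 10.6, then 27.1, 31.8 and 31.4, then 33.5, 46.2 and 33.2 CPM, with an early change of 0.90 ± 0.22 (adjusted p = 0.04). It rose in the early phase of the 3 strains and in the late phases of AKR/J and of Cav1-null.

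Among the pores of fast-firing neurons, Kcnc1 was at 8.58, 18.2 and 11.9, then 55.6, 39.5 and 56.9 CPM on d12 and d15 in AKR/J, a log2 change of 1.94 ± 0.28 (adjusted p = 0.0026). In C57BL/6J it was at 57.1, 68.5 and 21.9, then 99.3, 116 and 126 CPM, without overlap, and the change of 1.18 ± 0.36 (adjusted p = 0.064) missed the threshold. Kcnc2, on chromosome 10 at 112105226 to 112302929, was at 11.05, 10.1 and 9.54, then 26.3, 30.4 and 29.9, then 43.2, 40.1 and 39.8 CPM in Cav1-null, with log2 changes of 1.52 ± 0.12 (adjusted p = 5.1e-05) and 0.54 ± 0.09 (adjusted p = 0.00046). The mixture of the subfamily changed as well. Kcnc4 held 0.293% to 3.09% of the Kcnc level per length in AKR/J d12 and 10.4% to 12.2% on d17.

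The Kcnd genes encode pores of the A-type current, which opens below the firing threshold and spaces spikes. Over the 6 comparisons Kcnd2 was called higher in 5, Kcnd3 in 3 and Kcnd1 in 1. Kcnd2 went from 17.6, 21.9 and 10.1 to 45.4, 50.1 and 57.98 CPM in the C57BL/6J early phase (1.59 ± 0.26, adjusted p = 0.019), and rose early in the other strains too. Kcnd3 held 49.1% to 59.6% of the Kcnd level per length in C57BL/6J d12 and 38.7% to 45.9% on d17, against 23.9% to 27.8% and 42.1% to 53.4% for Kcnd2. Of the 4 Kcnip genes, whose products travel with these pores, 3, 1 and 4 rose in the early phase and 3, 3 and 4 in the late phase, with AKR/J first, then C57BL/6J, then Cav1-null. Kcnip2, on chromosome 19 at 45780278 to 45804836, was at 1.82, 1.63 and 2.38, then 7.101, 5.27 and 7.05, then 18.3, 17.5 and 16.1 CPM in AKR/J, with log2 changes of 1.70 ± 0.31 (adjusted p = 0.0058) and 1.46 ± 0.15 (adjusted p = 0.00062). Kcnip1 and Kcnip4 rose in the late phase of the 3 strains, Kcnip4 by 0.96 ± 0.14 (adjusted p = 0.0024), 1.00 ± 0.22 (adjusted p = 0.03) and 0.36 ± 0.11 (adjusted p = 0.02) on the log2 scale. Kcnip1 was at 33.8, 35.4 and 42.1, then 47.5, 56.6 and 59.97 CPM on d15 and d17 in C57BL/6J.

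Of the axonal Kv1 genes, Kcna2 was at 3.01, 8.29 and 7.87, then 27.8, 23.7 and 28.7, then 36.01, 38.5 and 43.5 CPM in AKR/J, with an early log2 change of 2.04 ± 0.35 (adjusted p = 0.0047). Kcna1 rose in the early phase of the 3 strains, to 5.54, 3.76 and 3.90 CPM in AKR/J and 7.53, 7.38 and 7.35 CPM in C57BL/6J on d15. Kcnab2, which encodes a cytoplasmic beta subunit of these channels, rose in the AKR/J early phase (0.91 ± 0.23, adjusted p = 0.018) and the Cav1-null late phase (0.51 ± 0.10, adjusted p = 0.0012). Kcna5, a pore known from the heart, lies 105 kb from Kcna1 on chromosome 6 and moved otherwise. In Cav1-null it was at 2.32, 1.82 and 2.08, then 1.12, 0.837 and 1.202, then 2.29, 2.08 and 1.89 CPM, called lower in the early phase (-0.95 ± 0.30, adjusted p = 0.044) and higher in the late phase (1.02 ± 0.29, adjusted p = 0.015). The early fall was called in 3 of the 13 alternatives. Kcna5 and Kcnj11 were the genes called in opposite directions in the 2 phases of a strain.

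**Figure D4:**
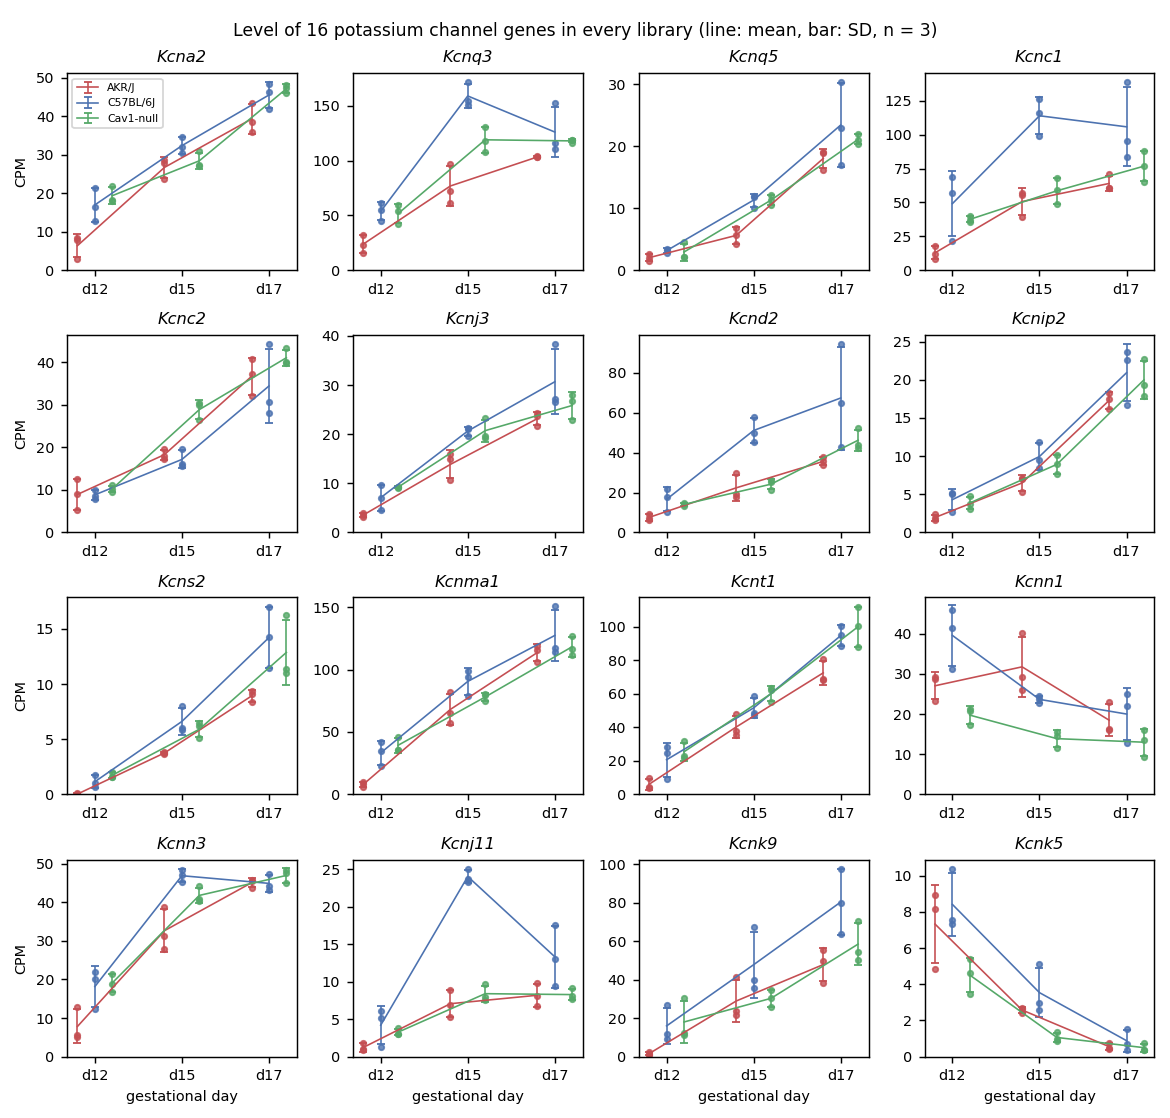
Level in CPM of 16 channel genes in every library on d12, d15 and d17, with the mean of each strain as a line and the SD of 3 libraries as a bar. Kcnq5, Kcnc2, Kcnip2 and Kcns2 climb over both phases in the 3 strains, Kcnk5 falls (4.87 to 8.94 CPM on d12 and 0.392 to 0.752 CPM on d17 in AKR/J), and Kcnj11 peaks on d15 in C57BL/6J.

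Kcnma1, the pore of the large-conductance calcium-activated (BK) channel, lies on chromosome 14 at 23339499 to 24064559 and rose in the early phase of the 3 strains. Its libraries were at 6.19, 9.69 and 8.23, then 64.9, 57.5 and 81.7, then 106, 119 and 116 CPM in AKR/J, with an early log2 change of 3.05 ± 0.22 (adjusted p = 0.0004). In C57BL/6J they were at 34.7, 41.96 and 23.2, then 78.6, 93.8 and 99.1, then 151, 114 and 117 CPM (1.41 ± 0.21, adjusted p = 0.017), and on d17 the ranges of the 3 strains overlapped. Kcnmb4, a neuronal beta subunit of the channel, was at 2.702 to 4.497 CPM over all libraries and was called in no comparison of days or strains. Kcnu1, a relative of Kcnma1 known from sperm, was detected at 0.340 to 9.27 CPM and rose in the early phases of AKR/J and of Cav1-null and in the C57BL/6J late phase. The C57BL/6J call was kept in 5 of the 13 alternatives and lost without any of the d15 libraries or the second or the third d17 library.

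The small-conductance calcium-activated channels, which shape the pause after a spike, changed in mixture. Kcnn1 was at 41.5, 46.1 and 31.3, then 22.9, 23.7 and 24.4 CPM on d12 and d15 in C57BL/6J, with a log2 change of -0.78 ± 0.15 (adjusted p = 0.024). It also fell in the Cav1-null early phase (-0.48 ± 0.14, adjusted p = 0.033) and the AKR/J late phase (-0.74 ± 0.18, adjusted p = 0.02). Kcnn3 rose in the early phase of each strain, from 20.2, 22.01 and 12.2 to 45.3, 47.1 and 48.5 CPM in C57BL/6J (1.34 ± 0.21, adjusted p = 0.018). Per length, Kcnn1 held 67.1% to 71.9% of the Kcnn level in AKR/J d12, 70.5% to 75.1% in C57BL/6J d12 and 53.4% to 57.3% in Cav1-null d12. On d17 it held 30.9% to 40.6%, 27.1% to 42.4% and 20.01% to 30.4%, and Kcnn3 held 41.8% to 48.6%, 39.5% to 50.4% and 48.7% to 54.8%. The d12 and d17 ranges of Kcnn1 did not overlap in any strain, while the d17 ranges of Kcnn1 and Kcnn3 overlapped in C57BL/6J. Kcnn2 was at 7.84, 5.44 and 7.09, then 17.5, 11.98 and 13.96, then 19.5, 19.5 and 22.7 CPM in AKR/J and rose in both phases there and in the Cav1-null early phase.

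Kcnn4, the calcium-activated channel of red blood cells, was at 2.97, 4.79 and 10.9 CPM in AKR/J d12 and at no more than 1.64 CPM in any other library, with a log2 change of -3.79 ± 0.58 (adjusted p = 0.0031) in the early phase. In the same order, the AKR/J d12 libraries had 6.90%, 3.56% and 13.6% of their reads in erythroid genes. The third was highest in both, while the second had more Kcnn4 than the first with a smaller erythroid share, and their part in the change was not tested. Kcnt1, the sodium-activated channel gene, rose in the late phase of the 3 strains to 68.1, 68.8 and 80.9 CPM in AKR/J, 95.3, 101 and 88.5 CPM in C57BL/6J and 100.3, 112 and 88.1 CPM in Cav1-null. Its late log2 changes were 0.89 ± 0.13 (adjusted p = 0.0021), 0.92 ± 0.14 (adjusted p = 0.0095) and 0.77 ± 0.09 (adjusted p = 1.8e-05). In AKR/J d12 it held 18.5% to 45.9% of the level per length of the Kcnt pair, and 73.3% to 75.3% on d15.

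Of the inward rectifiers opened by G proteins, Kcnj3 rose in all 6 comparisons and Kcnj6 in 5 of them, while Kcnj5 and Kcnj9 rose in the Cav1-null late phase alone by this test. Kcnj6 was at 0.413, 0.510 and 0.725, then 4.23, 2.98 and 3.02, then 7.52, 7.25 and 5.65 CPM in AKR/J, with an early log2 change of 2.61 ± 0.41 (adjusted p = 0.0034). Kcnj11, the pore of the ATP-sensitive channel of neurons, was at 5.16, 6.07 and 1.32, then 23.3, 23.7 and 25.1, then 17.6, 9.36 and 12.98 CPM in C57BL/6J, so each d15 library was above each library of the other days. Its log2 changes there were 2.49 ± 0.47 (adjusted p = 0.024) and -0.82 ± 0.21 (adjusted p = 0.046). In the late phase it was not called in AKR/J (0.26 ± 0.22, adjusted p = 0.44) or Cav1-null (0.01 ± 0.15, adjusted p = 0.98). Abcc8, which encodes the sulfonylurea receptor of the same channel, was called higher in the early phase of each strain, by 3.44 ± 0.60 (adjusted p = 0.0047), 2.52 ± 0.54 (adjusted p = 0.03) and 2.55 ± 0.27 (adjusted p = 0.00074) on the log2 scale for AKR/J, C57BL/6J and Cav1-null, and lower in the Cav1-null late phase (-0.52 ± 0.10, adjusted p = 0.0016).

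Kcnj10, the inward rectifier of astrocytes, was at 1.98, 2.65 and 3.42, then 8.82, 8.97 and 13.1 CPM on d12 and d15 in AKR/J and was called in the early phase of that strain (1.91 ± 0.31, adjusted p = 0.004). Summed astrocyte markers were at 206 to 269 CPM on d12 and 255 to 370.3 CPM on d15 there, which overlapped. Kcnj16, whose product joins that of Kcnj10, rose in both phases of C57BL/6J (2.26 ± 0.54, adjusted p = 0.037, and 1.72 ± 0.40, adjusted p = 0.033) and of Cav1-null. Kcnj2, which lies 29.4 kb from Kcnj16 on chromosome 11, rose in the C57BL/6J late phase (1.12 ± 0.16, adjusted p = 0.0085) and Cav1-null (1.25 ± 0.12, adjusted p = 3e-06). Kcnj8, the ATP-sensitive pore of pericytes, was called in the AKR/J early phase (1.36 ± 0.28, adjusted p = 0.0096), from 2.97, 2.41 and 3.26 to 8.34, 7.65 and 6.62 CPM, where summed pericyte markers were at 162 to 233 and 201 to 212 CPM. Abcc9, a partner of the ATP-sensitive channel that is also in the pericyte list, was called higher there too (1.48 ± 0.29, adjusted p = 0.007). The other pericyte markers are not given singly, and their part in the rise was not tested.

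Of genes used by the choroid plexus, Kcne2, an auxiliary subunit, was at 0.330, 0.544 and 1.04, then 13.6, 8.07 and 13.7 CPM on d12 and d15 in AKR/J, a log2 change of 4.19 ± 0.46 (adjusted p = 0.001). In Cav1-null it was at 8.97, 7.44 and 24.2, then 12.2, 15.98 and 14.1, then 8.44, 7.43 and 7.99 CPM and fell in the late phase (-0.80 ± 0.14, adjusted p = 0.00049). In the 3 Cav1-null d12 libraries the sums of choroid plexus markers were at 335, 303 and 722 CPM, and that of the third, which had 24.2 CPM of Kcne2, was the highest of all libraries. Those sums were at 251 to 311 and 330.4 to 469.5 CPM in AKR/J d12 and d15 and at 404 to 507 and 326 to 393 CPM in Cav1-null d15 and d17, and their part in the changes was not tested. Kcnj13, the inward rectifier of that epithelium, stayed at 0 to 1.64 CPM without a call. Kcne3, known from epithelia, was at 6.23, 2.21 and 4.61, then 1.27, 2.17 and 0.721, then 0.196, 0 and 0.196 CPM in AKR/J and fell in both phases (-1.67 ± 0.54, adjusted p = 0.048, and -3.32 ± 0.76, adjusted p = 0.016), and it fell in the Cav1-null early phase (-2.62 ± 0.52, adjusted p = 0.006). The AKR/J early call was kept in 6 of the 13 alternatives and lost without the first or the third library of either day. Placenta, decidua and yolk sac markers, a list that also holds the choroid plexus marker Ttr, were at 2333, 304 and 65.9 CPM in the 3 AKR/J d12 libraries. The first was highest in both, while the third, the second highest in Kcne3, was the lowest in these markers, and their part in the fall was not tested.

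Of the leak channels, Kcnk5, an acid-sensitive channel gene, fell with age. It lies on chromosome 14 at 20190125 to 20231900. Its libraries were at 8.17, 8.94 and 4.87, then 2.39, 2.71 and 2.62, then 0.752, 0.498 and 0.392 CPM in AKR/J, at 7.304, 10.4 and 7.54, then 5.09, 2.93 and 2.58, then 1.55, 0.383 and 0.701 CPM in C57BL/6J and at 5.38, 4.65 and 3.48, then 0.977, 1.35 and 0.835, then 0.382, 0.336 and 0.755 CPM in Cav1-null. No day overlapped the next in any strain. The early and late log2 changes were -1.54 ± 0.32 (adjusted p = 0.0097) and -2.19 ± 0.32 (adjusted p = 0.0022) in AKR/J, -1.28 ± 0.30 (adjusted p = 0.036) and -1.99 ± 0.51 (adjusted p = 0.043) in C57BL/6J, and -2.06 ± 0.29 (adjusted p = 0.001) and -1.07 ± 0.43 (adjusted p = 0.079) in Cav1-null, the last of which missed the threshold. Summed radial glia markers ranged over 3021 to 4964 CPM on d12 and 1594 to 1909 CPM on d17 in AKR/J. They ranged over 2611 to 3362 and 1481 to 1554 CPM in C57BL/6J and over 1986 to 2959 and 1266 to 1559.5 CPM in Cav1-null, lower on d17 in each strain without overlap, and their part in the fall was not tested.

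Kcnk9, also acid-sensitive, moved the other way, from 1.28, 0.850 and 2.49 to 23.6, 21.5 and 41.6 CPM in AKR/J, a log2 change of 4.22 ± 0.44 (adjusted p = 0.00088). It rose in the C57BL/6J early phase (1.56 ± 0.42, adjusted p = 0.048) and the Cav1-null late phase (0.98 ± 0.14, adjusted p = 0.00039), and its relative Kcnk3 rose in both phases of Cav1-null, where it was at 2.498, 1.95 and 2.83, then 4.26, 4.32 and 3.81, then 5.67, 8.54 and 7.51 CPM. The early rise of Kcnk3 was called in 3 of the 13 alternatives and the C57BL/6J rise of Kcnk9 in 6. The mechanosensitive members differed among themselves. Kcnk4 rose in the late phase of the 3 strains, from 0.923, 1.38 and 1.51 to 2.91, 3.698 and 3.89 CPM in AKR/J (1.499 ± 0.28, adjusted p = 0.0068), with 1.88 ± 0.29 (adjusted p = 0.011) in C57BL/6J and 1.203 ± 0.21 (adjusted p = 0.00056) in Cav1-null. Kcnk2 rose in both phases of AKR/J, from 13.2, 10.98 and 16.3 to 28.7, 24.3 and 32.8 CPM in the early one, and in the Cav1-null early phase, with its AKR/J late call kept in 6 of the 13 alternatives. Kcnk10 was at 38.1 to 66.8 CPM over all libraries and was called in no comparison of days, with log2 changes from -0.10 to 0.18.

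The ERG genes split in Cav1-null. Kcnh2, known for its role in the heart, was at 34.97, 30.5 and 31.5, then 24.04, 23.6 and 20.3 CPM on d12 and d15 and fell (-0.49 ± 0.11, adjusted p = 0.0098), while Kcnh7 went from 69.02, 68.5 and 45.1 to 83.1, 85.9 and 107 CPM and rose (0.63 ± 0.16, adjusted p = 0.022). In AKR/J Kcnh7 was at 19.2, 17.9 and 11.96, then 65.9, 51.3 and 62.1, then 77.98, 89.1 and 84.8 CPM and rose in both phases (1.83 ± 0.22, adjusted p = 0.0014, and 0.53 ± 0.10, adjusted p = 0.0071), and Kcnh2 was not called (-0.01 ± 0.23, adjusted p = 0.99, and -0.34 ± 0.16, adjusted p = 0.15).

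Of the channel genes not yet described, Kcnk1, a leak channel gene of wide expression, rose in the late phase of the 3 strains, and Kcnt2, the second gene of the sodium-activated pair, did so too. Kcnk1 was at 6.96, 5.403 and 8.75, then 15.6, 9.89 and 14.9 CPM on d15 and d17 in C57BL/6J (0.97 ± 0.24, adjusted p = 0.04). The voltage-gated pores Kcna4, Kcnd1, Kcnh3, Kcnh5 and Kcnh6, the modifiers Kcng3 and Kcns3, the auxiliary subunits Kcnab1 and Kcnip3 and the leak channel Kcnk13 were called higher at least once and never lower. Kcnab3, Kcne4, Kcng4, Kcnh8, Kcnj14, Kcnj15, Kcnk6, Kcnk12, Kcnmb1 and Kcnv2 were tested without a call between days.

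Other genes of potassium and membrane potential were counted in 3 lists. Of 19 auxiliary and anchoring partners of potassium channels, among them Abcc8 and Abcc9 of the ATP-sensitive and Lrrc26, Lrrc52 and Lrrc55 of the BK channel, 12 rose and 0 fell in the AKR/J early phase, 7 and 0 in C57BL/6J, and 12 and 0 in Cav1-null. Late, 7 rose and 0 fell in AKR/J, 5 and 1 in C57BL/6J, and 10 and 2 in Cav1-null. Dpp10, an auxiliary subunit of A-type channels, changed most in the AKR/J early phase (4.21 ± 0.41, adjusted p = 0.00079), with 0.884 to 2.90 CPM on d12 and 28.5 to 43.1 CPM on d15. Of 8 genes of hyperpolarization-activated and related cation channels, 7, 5 and 7 rose early and 5, 2 and 6 late, with no fall. Of 13 genes of the sodium pump and of cation-chloride cotransport, 6, 3 and 8 rose and 1, 1 and 2 fell early, and 7, 2 and 7 rose and 2, 1 and 1 fell late. Among all genes tested, 14.8%, 7.12% and 11.8% were higher and 14.1%, 7.89% and 12% lower early, in the same order of strains. The late shares of all genes were 11.8%, 7.47% and 14.6% higher and 10.5%, 5.52% and 12.9% lower. The 3 lists were not tested as sets. Slc12a7, a potassium-chloride cotransporter, fell in all 6 comparisons, with 63.8 to 86.8 CPM on d12 and 12.4 to 25.4 CPM on d17 in C57BL/6J.

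The comparison of strains on the same day asked whether the channel genes differed between AKR/J or Cav1-null and C57BL/6J. Both comparisons use the same C57BL/6J libraries. In AKR/J, 23 channel genes were lower and 2 higher on d12, where 14.2% of all genes tested were lower and 14.5% higher, and 35 were lower and 4 higher on d15, beside 22.4% and 18.9%. The channel genes lower were 25.0% of the 92 on d12 and 38.04% on d15. In Cav1-null on d15, 29 were lower and 11 higher, beside 31.6% and 26.8% of all genes tested. These are 31.5% and 11.96% of the 92, or 36.2% and 13.8% of the 80 that were tested, on either side of the background for the genes lower, and with library sizes alone in place of the trimmed mean the split was 23 lower and 16 higher.

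**Figure D5:**
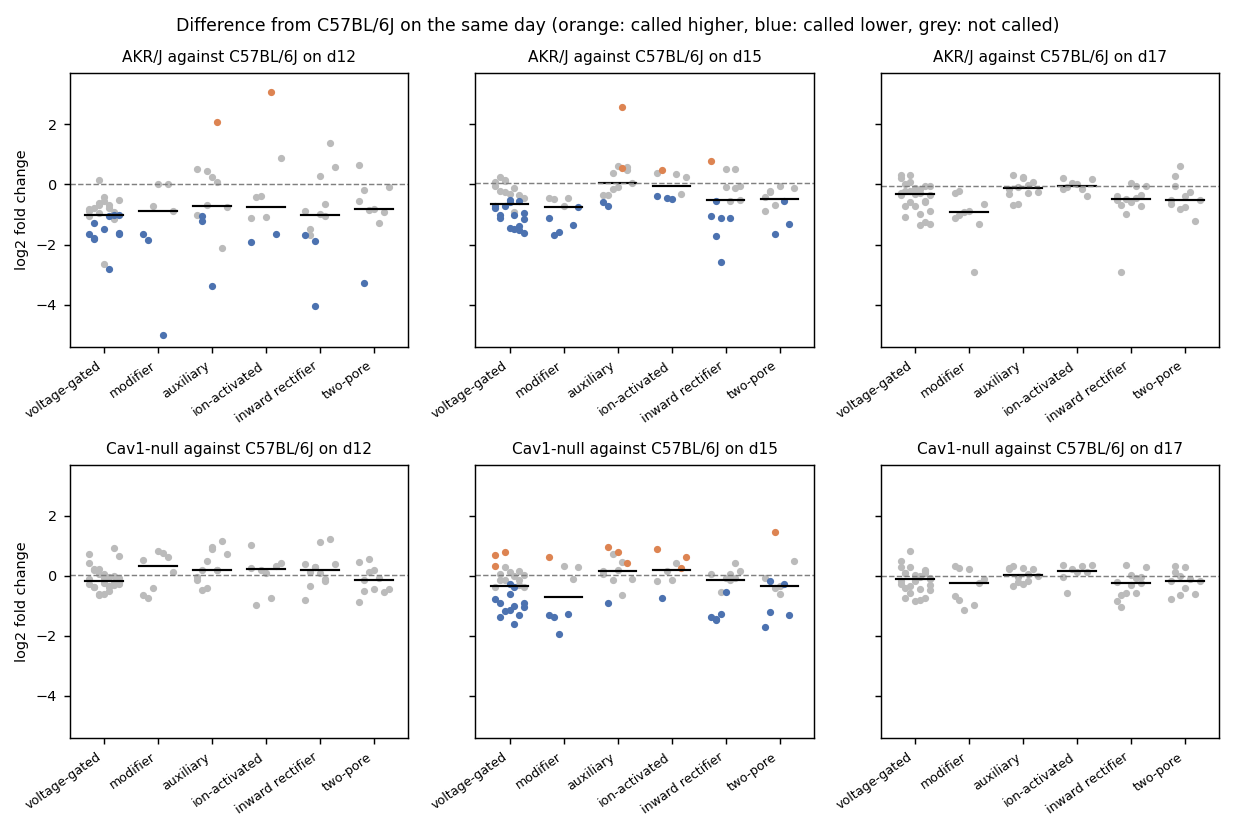
Log2 difference from C57BL/6J of each channel gene tested, in AKR/J and Cav1-null on d12, d15 and d17, by class, with the class median as a bar and the median of all genes tested as a dashed line. The class medians of AKR/J on d12 lie between -1.03 and -0.72, and no gene is called on d17.

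On d17 edgeR called no channel gene in either strain, with 0.723% of all genes tested called in AKR/J and 0.0491% in Cav1-null. At an unadjusted p under 0.05 there were 26 channel genes for AKR/J, 32.1% of those tested beside 21% of all genes, and 7 for Cav1-null, 8.64% beside 7.42%. DESeq2 called 11 and 1, beside 6.58% and 0.236% of all genes. Without the second C57BL/6J d17 library edgeR called 27 and 18, beside 26.5% and 14.5%. On d12 edgeR called no channel gene and 0% of all genes between Cav1-null and C57BL/6J. At an unadjusted p under 0.05 there were 7 channel genes, 8.86% of those tested and below the 22% of all genes. DESeq2 called 4 (all genes 10.5%), and edgeR without the third C57BL/6J d12 library 4 (all genes 9.92%). The AKR/J count of 25 on d12 became 8, 0 and 38 without the first, the second and the third C57BL/6J library, and 7 without the first or the third AKR/J library. The share of all genes called is not given for these settings of AKR/J on d12.

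Of the genes lower in AKR/J, 17 were so on both d12 and d15, 22.4% of the channel genes tested on both days beside 12.4% of all genes so tested. Among them were Kcna6, Kcnab2, Kcnc1, Kcnc4, Kcnd2, Kcnd3, Kcnf1, Kcng1, Kcnh1, Kcnj6, Kcnj10, Kcnj12, Kcnma1, Kcnq3 and Kcns2. The log2 difference in Kcnma1 was -1.93 ± 0.29 (adjusted p = 0.011), -0.37 ± 0.12 (adjusted p = 0.042) and -0.15 ± 0.14 (adjusted p = 0.55) on d12, d15 and d17. Kcns2 had 2 reads over AKR/J d12 and 110 over C57BL/6J d12, a ratio of 42.4 with a 95% counting interval of 11.5 to 354. On d15 the largest difference was that of Kcnj4, an inward rectifier of the forebrain, at 0.159, 0 and 0.295 CPM in AKR/J and 1.08, 1.28 and 0.410 CPM in C57BL/6J (-2.58 ± 0.83, adjusted p = 0.038).

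Kcne3 and Kcnn4 were higher in AKR/J on d12, and Kcne3, Kcnj2, Kcnmb2 and Kcnn1 on d15, Kcnj2 in 6 of the 13 alternatives. Kcnmb2, a beta subunit that inactivates the BK channel, was the gene higher in both strains on d15, at 8.63, 8.88 and 9.73 CPM in AKR/J and 10.6, 10.95 and 11.3 CPM in Cav1-null against 6.04, 6.83 and 6.56 CPM in C57BL/6J (0.53 ± 0.14, adjusted p = 0.018, and 0.80 ± 0.13, adjusted p = 0.00017). Its AKR/J call was kept in 6 of the 13 alternatives and lost without the third AKR/J d15 library or any of the C57BL/6J d15 libraries, and its Cav1-null call was kept in 12. Summed neuronal markers on d15 were at 7149 to 7959 CPM in C57BL/6J, 4413 to 6752 CPM for AKR/J and 6124 to 6160.5 CPM for Cav1-null, and astrocyte markers at 425 to 484, 255 to 370.3 and 202 to 211 CPM. Endothelial markers were at 196 to 268, 90.2 to 113 and 56.05 to 73.3 CPM, pericyte markers at 268 to 336, 201 to 212 and 171 to 186 CPM, and markers of the oligodendrocyte lineage at 160.3 to 197, 84.3 to 143 and 87.4 to 104 CPM. All of these were highest in C57BL/6J without overlap, erythroid genes were lowest there (811 to 1069.7, 2038 to 3146 and 2911 to 3609 CPM), and their part in the differences was not tested.

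In Cav1-null on d15, Kcng2, a modifier subunit, differed most, at 0.663, 0.741 and 0.167 CPM against 2.09, 1.801 and 2.31 CPM in C57BL/6J (-1.94 ± 0.42, adjusted p = 0.0014). Kcnj10 was at 7.22, 8.73 and 8.78 CPM against 20.6, 19.9 and 24.8 CPM (-1.36 ± 0.13, adjusted p = 8.9e-07), and Kcnj11 at 7.96, 7.601 and 9.62 CPM against 23.3, 23.7 and 25.1 CPM (-1.48 ± 0.12, adjusted p = 2e-07). Higher in Cav1-null were Kcnb2, Kcnc2, Kcnh7, Kcnip1, Kcnip4, Kcnk7, Kcnmb2, Kcnt1, Kcnt2, Kcnu1 and Kcnv1. Of these, Kcnk7 had few reads, at 0.628, 0.322 and 1.37 CPM against 0.271, 0.320 and 0.263 CPM. Kcnip4 was at 15.7, 14.1 and 14.2 CPM against 6.85, 7.23 and 9.42 CPM (0.95 ± 0.14, adjusted p = 7.3e-05). On d17 the values of Kcnip4 overlapped, at 18.7, 19.5 and 17.2 CPM against 12.4, 18.7 and 14.3 CPM.

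Whether a phase differed between strains was tested as an interaction over 12 libraries. EdgeR called no channel gene in any of the 4 interactions, in which 0.0711% of all genes tested were called for AKR/J early, 0.00468% for AKR/J late, 0.00472% for Cav1-null early and 0.504% for Cav1-null late. At an unadjusted p under 0.05 there were 21, 10, 8 and 13 channel genes in the same order, 25.3%, 12.05%, 9.64% and 15.7% of those tested, beside 16.3%, 7.53%, 14.7% and 21.8% of all genes. DESeq2 called 6, 0, 0 and 1, beside 4.83%, 0.211%, 2.44% and 6.7% of all genes. Leaving out single libraries gave 9 calls for AKR/J early without the second AKR/J d12 library (all genes 14.8%) and 8 without the third C57BL/6J d12 library (all genes 1.86%). Without the first C57BL/6J d17 library there were 3 for AKR/J late (all genes 3.8%) and 22 for Cav1-null late (all genes 26%), and without the second C57BL/6J d12 library 6 for Cav1-null early (all genes 7.74%). The changes of one strain are therefore not shown to differ from those of C57BL/6J by the test used here.

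Splice junctions were listed for 41 of the 92 genes, 130 junctions in all, and 24 splice sites of these genes had more than 1 junction. None of the 24 passed the filter of the comparison of d12 with d17. It required 20 reads at the site in every library and a mean share of 5% to 95% for the most-read junction. Which limit each site missed is not given here. With at least 10 reads in every library, a minimum chosen after the data were seen, 2 sites could be tested and neither was called by limma, among them 1 of Kcnn1 (adjusted p = 0.104). Over all genes, 591 of 3095 sites (19.1%) were called at that minimum.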

How the data were processed

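The authors sequenced poly-A RNA of 27 fetal brain libraries. Per the labels and the study's methods they trimmed reads with cutadapt and fastp, checked them with FastQC, aligned them to GRCm39 with STAR and compared groups with edgeR. They deposited whole-number counts of reads per Ensembl gene and per splice junction, neither scaled nor pooled. The counting tool, its strand setting and the versions are not given in the sources used here, and a junction count of 0 can be a junction the authors removed.

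Counts were analysed in R 4.3.3 with edgeR 4.0.16: genes kept by filterByExpr, scaled by the trimmed mean of M values, fitted over all genes by the robust quasi-likelihood test, and adjusted by Benjamini-Hochberg. Each comparison used its 6 libraries, and an interaction its 12. CPM was scaled over all 27 libraries, and lengths are exon lengths in GRCm39. Junction shares were fitted with limma 3.58.1. Alternatives were DESeq2 1.42.0, edgeR's likelihood ratio test, other scalings, no filter, 1 model for all libraries, a replicate block and leaving out each library. The scripts were tested on simulated data. Counting intervals and floors cover counting error only.

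The members, the gene lists and the tests were chosen with earlier results of these data known. Genes given with values were, by a written rule, the member with the highest mean CPM of each subfamily, in each comparison of days the called genes with the 2 largest rises and falls (average log2 CPM of at least 1), the gene that differed most between strains on each day, genes called in opposite directions, and a set chosen by role. Others named, among them Kcna3, Kcnb2, Kcnc2, Kcnip2, Kcnk1, Kcnt2, Kcnj5 and Kcnj9, were chosen after their values were seen. Some genes are counted but not reported here by name or drawn as rows. Promoter sequences are from RefSeq (67 of the 92 genes matched). P-values measure the spread between these libraries, whose litters the labels do not give.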

Additional observations from a re-analysis of the deposited data

Results flagged for a closer look

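For Kcnj5, an inward rectifier opened by G proteins, each d17 library was below each d15 library in AKR/J and above each in Cav1-null. In AKR/J its libraries were at 2.55, 2.29 and 2.56 CPM on d15 and 1.54, 1.74 and 2.03 CPM on d17. In Cav1-null they were at 1.54, 1.51 and 2.34 CPM on d15 and 2.55, 4.41 and 2.39 CPM on d17. The AKR/J change of -0.43 ± 0.24 (adjusted p = 0.24) missed the threshold and the Cav1-null change of 0.82 ± 0.29 (adjusted p = 0.046) passed it. The log2 fold change of AKR/J minus that of Cav1-null was -1.249, and the difference was not tested.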

How the results depend on the processing

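The direction of each of the 215 calls on channel genes chosen as the methods state was kept under every alternative run for them (2795 values in all), and 483 of these missed the threshold, 345 of them with a library left out. For genes named beside those, such as Kcnc2 and Kcnip2, only their part in the counts was rerun. Of 233 alternative counts of called channel genes, 179 were within 1.5 times the reported count. With all 27 libraries in 1 model the counts that moved more became 17 (AKR/J late), 42 (C57BL/6J early), 11 (C57BL/6J late), 24 (Cav1-null early), 5 (Cav1-null late), 56 (AKR/J against C57BL/6J on d12), 3 (AKR/J against C57BL/6J on d17), 3 (Cav1-null against C57BL/6J on d12), 22 (Cav1-null against C57BL/6J on d15) and 9 (the AKR/J early interaction). DESeq2's Wald test gave 49 (C57BL/6J early), 11 (AKR/J against C57BL/6J on d17), 4 (Cav1-null against C57BL/6J on d12), 1 (Cav1-null against C57BL/6J on d17), 6 (the AKR/J early interaction) and 1 (the Cav1-null late interaction), and edgeR's likelihood ratio test 44 (C57BL/6J early), 11 (AKR/J against C57BL/6J on d17), 2 (Cav1-null against C57BL/6J on d12), 1 (Cav1-null against C57BL/6J on d17) and 6 (the AKR/J early interaction). Library sizes alone gave 2 (AKR/J against C57BL/6J on d17) and 3 (the AKR/J early interaction), and no filter on low counts 2 (AKR/J against C57BL/6J on d17), 2 (Cav1-null against C57BL/6J on d12) and 2 (the AKR/J early interaction). The cause of these shifts was not tested. Leaving out single libraries gave 32 to 51 (AKR/J early), 16 to 34 (AKR/J late), 0 to 42 (C57BL/6J early), 0 to 26 (C57BL/6J late), 28 to 53 (Cav1-null early), 35 to 40 (Cav1-null late), 0 to 38 (AKR/J against C57BL/6J on d12), 28 to 37 (AKR/J against C57BL/6J on d15), 0 to 27 (AKR/J against C57BL/6J on d17), 0 to 4 (Cav1-null against C57BL/6J on d12), 35 to 39 (Cav1-null against C57BL/6J on d15), 0 to 18 (Cav1-null against C57BL/6J on d17), 0 to 9 (the AKR/J early interaction), 0 to 3 (the AKR/J late interaction), 0 to 6 (the Cav1-null early interaction) and 0 to 22 (the Cav1-null late interaction), and fewer libraries leave fewer degrees of freedom. Library sizes alone shifted the median of all genes by 0.44 in AKR/J early, 0.14 in C57BL/6J late, -0.40, 0.16 and 0.18 between AKR/J and C57BL/6J on d12 and d15 and between Cav1-null and C57BL/6J on d15, and 0.55, -0.21 and -0.10 in the AKR/J early, the AKR/J late and the Cav1-null late interaction.

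The labels number the replicates, and whether the numbers pair libraries is not settled here. In no comparison were all correlations of same-numbered deviations over 0.1, a limit set for this check. They ran from 0.0925 to 0.323 for AKR/J with C57BL/6J on d12 and from -0.234 to -0.153 for Cav1-null with C57BL/6J on d15. A replicate block gave 0 (C57BL/6J early) and 7 (AKR/J against C57BL/6J on d17) and moved no other count by over 1.5 times. Splice sites gave no value under the other alternatives, since none of the channel genes had a site that passed the limits on reads and share.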
